A study of Owenia fusiformis with 14 samples.

Results

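To compare what the inhibitors SB431542 and DMH1 do to gene expression in the annelid *Owenia fusiformis*, the effect of each was measured against its own solvent control and the effects were subtracted from each other, gene by gene. The comparison used 8 of the 14 whole-embryo RNA-seq libraries of the series, in 4 groups of 2 replicates. Embryos of the DMH1 group received 20 µM DMH1 and their controls 0.2% DMSO, both from 4 to 6 hours post fertilisation (hpf). Embryos of the SB431542 group received 40 µM SB431542 and their controls 0.4% DMSO, both from 3 to 6 hpf. DMSO (dimethyl sulfoxide) is the solvent of both drugs. The sample labels spell the second inhibitor SB435421, whereas the treatment protocol of the same samples names SB431542, the name used here. The labels give no strain or genotype. Each library was made from whole embryos, so that fewer cells of a type and less RNA per cell cannot be told apart. The other 6 libraries, 2 each of mock-treated embryos, embryos given recombinant BMP4 (rBMP4) and embryos given recombinant Activin A (rActivin A), all from 4 to 6 hpf, took no part in the subtraction and served as an independent readout.

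Bone morphogenetic proteins (BMPs) and Activin or Nodal ligands belong to the same superfamily, the transforming growth factor-β ligands, but signal through different type I receptors. BMP receptors phosphorylate SMAD1/5/8, whereas Activin and Nodal receptors phosphorylate SMAD2/3, and in each case the phosphorylated SMAD enters the nucleus and changes transcription. DMH1 blocks BMP type I receptors, and SB431542 blocks the type I receptors for Activin, Nodal and transforming growth factor-β. In many animals BMP signalling sets the dorsoventral axis, with Chordin binding BMP outside the cell and holding it away from its receptors. Subtracting the effects therefore asks in which genes the 2 drugs did not act alike at the blastula stage.

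The pairs of groups also differed in more than the drug. SB431542 and its control shared a longer exposure and a higher DMSO concentration than DMH1 and its control, so drug, start of exposure and solvent cannot be told apart in a direct comparison of SB431542 with DMH1 embryos. Subtracting each control removes what a group shares with its control. The dose and the time spent in the drug are not shared with the control. In the difference between the effects they cannot be told apart from the drug. The subtraction also lets either control create a difference between the effects. For this reason each gene with a difference was traced back to the libraries that carried it.

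The 8 libraries held 16316525 to 59916462 estimated counts, and the DMH1 libraries were the deepest, with 59916462 and 51004775 counts. Thinning every library to the smallest total gave 763 genes with a difference between the effects, beside the 806 given below. Replicates of 0.2% DMSO were the least alike. Across genes, which are not independent replicates, their log2 CPM (counts scaled to the same total in every library after TMM normalisation) correlated with r = 0.961, against 0.981 to 0.985 in the other 3 groups. The SB431542 libraries correlated with those of 0.4% DMSO at 0.976 to 0.980, higher than the 0.2% DMSO replicates did with each other, and every other pair of libraries from different groups had an r between 0.940 and 0.954. The median gap between replicates was 0.338 log2 units in 0.2% DMSO and 0.168 to 0.233 in the other groups. No label says whether replicates came from separate batches of embryos, so p-values measure the spread between these libraries.

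Of 20399 genes with enough counts to test, 806 (3.95%) passed both thresholds, a Benjamini-Hochberg adjusted p below 0.05 in edgeR's quasi-likelihood test and a difference of at least 1 log2 unit. The SB431542 effect lay above the DMH1 effect in 344 genes (1.69%) and below it in 462 (2.26%). Over the 791 of these genes that had counts in every group, the median size of the difference was 1.70 log2 units and the largest 8.30. Members just inside the thresholds had an adjusted p of 0.04999 and a difference of 1.00, and genes just outside had 0.0505 and 0.998. The count depended on single libraries: it was 1961 and 1590 without the first and the second 0.2% DMSO replicate, 174 and 167 without either DMH1 replicate, 175 without the second 0.4% DMSO replicate, and 124 and 181 without either SB431542 replicate. Only 109 of the 806 genes (13.5%) were called in all 8 of these fits, each of which left out 1 library.

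The effects that were subtracted differed in extent. SB431542 changed 60 genes (0.294%) against 0.4% DMSO, of which 21 (0.103%) rose and 39 (0.191%) fell. DMH1 changed 1760 (8.63%) against 0.2% DMSO, with 1069 (5.24%) higher and 691 (3.39%) lower. Of the 60 genes called after SB431542, 14 were also called after DMH1, which called 8.63% of all genes tested. Of these 14, 8 changed in the same and 6 in the opposite direction. No test of this overlap was made. The controls alone differed in 1638 genes (8.03%), of which 1012 (4.96%) were higher and 626 (3.07%) lower in 0.4% DMSO, so the embryos that received no drug differed from each other in nearly as many genes as DMH1 embryos differed from their control. A direct comparison of SB431542 with DMH1 embryos called 2177 genes (10.7%), with 1089 (5.34%) higher and 1088 (5.33%) lower in SB431542, 389 of them among the 806. Each of these counts moved by more than 1.5 times with single libraries. SB431542 had 156 and 157 calls without the first and the second 0.2% DMSO replicate, 29 and 25 without those of 0.4% DMSO and 26 and 17 without those of SB431542 itself. DMH1 had 793 and 806 without its own replicates. The control difference had 2466 calls without the first 0.2% DMSO replicate and 654 without the second 0.4% DMSO replicate, and the direct comparison had 1237 and 1250 without the DMH1 and 1117 and 1067 without the SB431542 replicates. The share of all genes tested that each contrast called is the background against which counts of the 806 are read below, and since the contrasts share libraries with the difference itself those counts are a description.

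**Figure D1:**
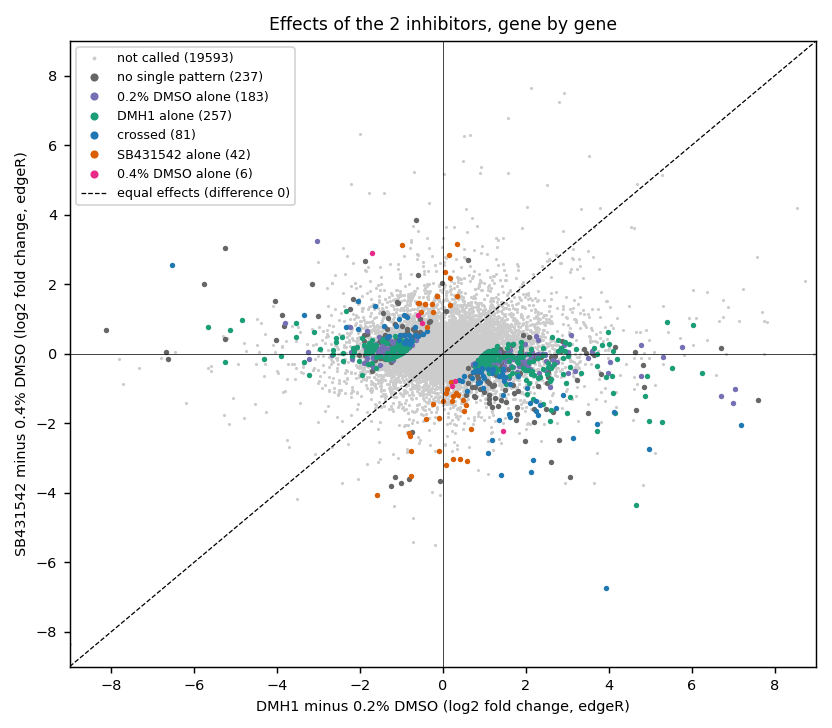
Each point is a gene, placed by its log2 fold change after DMH1 (horizontal, against 0.2% DMSO) and after SB431542 (vertical, against 0.4% DMSO), both from edgeR. The dashed line marks equal effects, colours mark the libraries that set the 806 called genes apart, and 3 of the 20399 genes lie outside the axes, which end at 9. Most coloured points spread along the horizontal axis, where DMH1 embryos and their control differ, and the 42 genes set apart by SB431542 spread along the vertical axis.

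To trace a difference to its source, the mean log2 CPM of the 4 groups was compared. A gene was assigned to a group when setting that group apart from the other 3 took up at least 80% of the variation among the 4 means and the libraries did not overlap. A further pattern, called crossed, joined SB431542 with 0.2% DMSO on one side and DMH1 with 0.4% DMSO on the other. By group means, both drugs then lie in opposite directions from their controls, and the controls lie apart too, whether or not each step was called. These patterns use the same values as the call and are given without a test. The definition of each pattern also favours which contrasts call its genes, so counts by contrast within a pattern are a description. Of the 806 genes, 257 (31.9%) were set apart by DMH1, 183 (22.7%) by 0.2% DMSO, 42 (5.21%) by SB431542, 6 (0.744%) by 0.4% DMSO, and 81 (10.05%) were crossed. Among all 20399 genes tested the same patterns held 14.5%, 13.8%, 2.75%, 1.88% and 1.93%. The remaining 237 called genes (29.4%) had no single pattern, beside 65.1% of all genes. When 1 library was left out, SB431542 alone held 12 to 47 genes, DMH1 alone 34 to 455, 0.2% DMSO alone 22 to 687, 0.4% DMSO alone 0 to 22, and the crossed pattern 14 to 176. Genes just inside the limit had a share of 80.1%, and just outside it, with separate libraries, 79.8%.

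**Figure D2:**
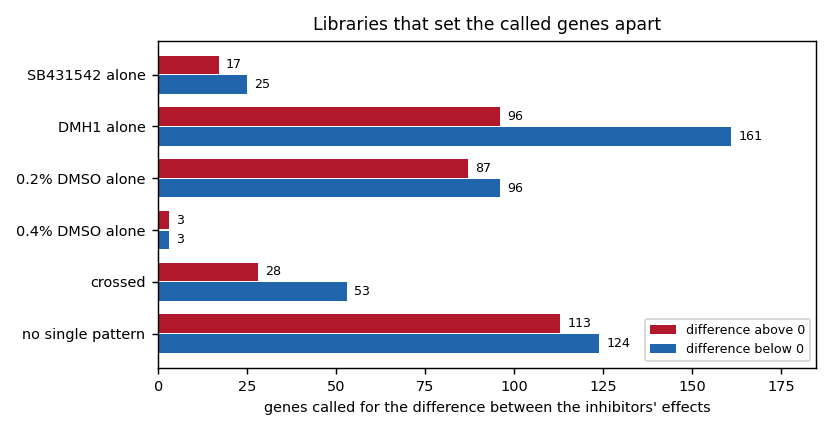
Number of called genes (horizontal) in each pattern (vertical), with bars split by whether the SB431542 effect lay above the DMH1 effect (red) or below it (blue). The bars for DMH1 alone, with 96 and 161 genes, and 0.2% DMSO alone, with 87 and 96, are longer than those for SB431542 alone, with 17 and 25.

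The deposited identifiers of the genes named below are not paired with gene names, except for the 6 BMP pathway genes given at the end, so each is given by its identifier and its values, and nothing is said of its function. In every pattern the genes named are the 2 on each side of 0 with the smallest p.

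SB431542 alone set apart 42 genes, among which OFUSG20168 and OFUSG20173 may not be separate signals (given with the mock libraries below). In 25 of the 42 genes SB431542 embryos had less RNA than the other 3 groups, and in 17 they had more. Of the 42, 31 were called for the SB431542 effect itself (12 rose and 19 fell) and 1 for the DMH1 effect. The gene with the smallest p of the whole comparison was OFUSG11955. It stood at 3.89 and 4.10 CPM in the SB431542 libraries, 34.1 and 34.5 in 0.4% DMSO, 25.9 and 29.0 in DMH1, and 17.7 and 19.4 in 0.2% DMSO. SB431542 embryos were low and no group overlapped with them, while both controls also differed from each other. The SB431542 effect was -3.10 ± 0.16 log2 units (SE), the DMH1 effect 0.57 ± 0.14, and the difference between them -3.67 ± 0.21 (adjusted p = 2.61e-05). OFUSG07844 was more even across the remaining groups, with 25.5 and 25.8 CPM in SB431542, 84.7 and 77.2 in 0.4% DMSO, 109 and 110 in DMH1, and 77.9 and 75.3 in 0.2% DMSO. Here DMH1 embryos sat above both controls and SB431542 embryos below them. The difference was -2.17 ± 0.15 (adjusted p = 7.67e-05).

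Genes that were high in SB431542 embryos showed smaller steps. OFUSG20168 was at 31.9 and 32.3 CPM in SB431542 and at 11.7 and 12.1 in 0.4% DMSO, with 10.5 and 10.6 in DMH1 and 14.7 and 13.9 in 0.2% DMSO. The SB431542 libraries were the only high ones among the 8. The SB431542 effect was 1.43 ± 0.14 log2 units and the difference between the effects 1.87 ± 0.20 (adjusted p = 0.00101). For OFUSG01088 the SB431542 libraries held 86.2 and 95.3 CPM, those of 0.4% DMSO 39.4 and 40.5, DMH1 29.3 and 30.1, and 0.2% DMSO 47.3 and 38.2. Its difference was 1.71 ± 0.18 (adjusted p = 0.000877), to which an SB431542 effect of 1.19 and a DMH1 effect of -0.52 contributed. Over all 17 genes of this kind the SB431542 effect ranged from 0.77 to 3.16 log2 units with a median of 1.45, and over the 25 that were low in SB431542 it ranged from -4.06 to -0.81 with a median of -1.86.

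DMH1 alone set apart 257 genes, with DMH1 embryos above the other groups in 161 and below them in 96. The definition of the pattern favours calls for the DMH1 effect and few for the SB431542 effect, so these counts only describe it. In edgeR and DESeq2 alike 0 of the 257 were called for the SB431542 effect (0.294% of all genes in edgeR). At an unadjusted p below 0.05 in edgeR there were 15, beside 1256 of all 20399 genes. For the DMH1 effect 215 were called (8.63% of all genes), 136 of which rose and 79 fell. OFUSG22702 stood at 296 and 297 CPM in DMH1, against 96.9 and 97.5 in 0.2% DMSO, 92.9 and 85.4 in 0.4% DMSO, and 87.6 and 85.3 in SB431542. Among the 8 libraries those of DMH1 were high and the other 6 nearly level. The DMH1 effect was 1.61 ± 0.09, the SB431542 effect -0.04 ± 0.09 and the difference -1.65 ± 0.13 (adjusted p = 0.000137). OFUSG06155 was low elsewhere, with 20.7 and 19.6 CPM in DMH1, 2.87 and 2.00 in 0.2% DMSO, 3.97 and 5.17 in 0.4% DMSO, and 3.50 and 3.52 in SB431542. Its difference of -3.43 ± 0.34 (adjusted p = 0.000732) came with a DMH1 effect of 3.05.

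In the other direction, OFUSG14519 was nearly absent from DMH1 embryos. It had 0.672 and 0.897 CPM there, 13.3 and 10.4 in 0.2% DMSO, 8.96 and 6.55 in 0.4% DMSO, and 6.32 and 8.42 in SB431542. The SB431542 libraries overlapped with their control, and the DMH1 libraries, at 40 and 45 counts, lay below all others. The DMH1 effect was -3.92 ± 0.29 and the difference 3.84 ± 0.39 (adjusted p = 0.000732). OFUSG15797 was at 34.4 and 33.3 CPM in DMH1, 84.7 and 100.1 in 0.2% DMSO, 107 and 111 in 0.4% DMSO, and 140 and 152 in SB431542. Its difference of 1.87 ± 0.16 (adjusted p = 0.00019) was mostly a DMH1 effect of -1.45, with an SB431542 effect of 0.42 that did not pass the test (adjusted p = 0.223). Across the genes of this pattern with counts in every group the DMH1 effect ranged from 0.77 to 6.24 log2 units where DMH1 was high (158 genes, median 1.73) and from -5.66 to -0.75 where it was low (96 genes, median -1.41).

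In 183 genes the 0.2% DMSO control was the group apart from DMH1, 0.4% DMSO and SB431542 embryos. It was higher than the others in 87 and lower in 96. Of these genes 153 were called for the DMH1 effect and 142 for the difference between the controls, but 0 for the SB431542 effect (also 0 by DESeq2, and 2 at an unadjusted p below 0.05) and 7 for the direct comparison of the drugs, with 46 at an unadjusted p below 0.05 there. Of the 4 genes named, OFUSG26864, OFUSG02833 and OFUSG03270 had a direct difference with an adjusted p below 0.05 (0.025, 0.03 and 0.0473) that was smaller than 1 log2 unit. OFUSG12222 had 120 and 140 CPM in 0.2% DMSO, 53.9 and 59.6 in DMH1, 62.7 and 65.6 in 0.4% DMSO, and 60.5 and 61.5 in SB431542. The 0.2% DMSO libraries stood above the other 6, which lay between 53.9 and 65.6. The DMH1 effect was -1.20 ± 0.11 (adjusted p = 0.000142), while SB431542 and DMH1 embryos differed by 0.10 ± 0.11 (adjusted p = 0.53). The difference between the effects was 1.12 ± 0.16 (adjusted p = 0.00397).

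OFUSG02833 gave the opposite picture, with 41.9 and 39.8 CPM in 0.2% DMSO, 120 and 128 in DMH1, 91.4 and 104 in 0.4% DMSO, and 99.8 and 94.5 in SB431542. Here the 0.2% DMSO libraries were the low ones, and the other 6 stood well above them. The controls differed by 1.25 ± 0.11 (adjusted p = 6.81e-05), the drugs by -0.35 ± 0.10, and the effects by -1.61 ± 0.15 (adjusted p = 0.000487). OFUSG03270 was at 0.706 and 0.597 CPM in 0.2% DMSO, which is 14 counts in each library, and at 7.63 and 7.14 in DMH1, 5.52 and 3.74 in 0.4% DMSO, and 4.23 and 4.32 in SB431542. The 0.2% DMSO libraries again lay below the rest, and the difference was -3.62 ± 0.42 (adjusted p = 0.00132). OFUSG26864 had 132 and 153 CPM in 0.2% DMSO and 32.2 to 52.8 in the other 6 libraries, with a difference of 1.65 ± 0.19 (adjusted p = 0.00131).

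Crossed genes were 81. SB431542 and 0.2% DMSO were the low side in 53 and the high side in 28. For the SB431542 effect 5 of the 81 were called, all lower (0.294% of all genes tested were called). For the DMH1 effect 45 were called (8.63% of all genes) and for the difference between controls 27 (8.03%). OFUSG07842 had the largest difference among the genes named here. It held 0.677 and 1.07 CPM in SB431542, 6.93 and 8.04 in 0.4% DMSO, 12.1 and 9.75 in DMH1, and 2.17 and 2.64 in 0.2% DMSO. No group overlapped with another, and the drugs took the gene in opposite directions from controls that were themselves apart. The SB431542 effect was -3.07 ± 0.31, the DMH1 effect 2.17 ± 0.27, the control difference 1.63 ± 0.27 and the difference between the effects -5.24 ± 0.40 (adjusted p = 0.000137). OFUSG16343 fell from 22.7 and 23.4 CPM in 0.4% DMSO to 1.64 and 2.41 in SB431542, and stood at 8.14 and 8.71 in DMH1 and 4.64 and 1.79 in 0.2% DMSO. In this gene 0.4% DMSO alone was the highest group, and the SB431542 and 0.2% DMSO libraries overlapped. Its difference was -4.90 ± 0.49 (adjusted p = 0.000732). The genes named on the high side, OFUSG13897 and OFUSG22260, had smaller differences of 1.24 ± 0.20 (adjusted p = 0.00729) and 1.46 ± 0.24 (adjusted p = 0.00816), with DMH1 as the lowest group in both. Neither was called for the effect of SB431542 (adjusted p = 0.223 and 0.796).

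The 0.4% DMSO control set apart only 6 genes. For either drug's own effect 0 of the 6 were called by edgeR or DESeq2, with 6 at an unadjusted p below 0.05 after SB431542 and 2 after DMH1, and 5 were called for the control difference. OFUSG14317, the most abundant gene named here, stood at 2504 and 2156 CPM in 0.4% DMSO, 1244 and 1445 in SB431542, 971 and 939 in 0.2% DMSO, and 1063 and 1264 in DMH1. The difference was -1.08 ± 0.16 (adjusted p = 0.00455). The SB431542 effect on OFUSG14317 was -0.79 ± 0.11 (adjusted p = 0.00726), under the fold minimum of 1 log2 unit. OFUSG26435 was likewise highest in 0.4% DMSO, at 61.1 and 64.8 CPM against 29.4 to 46.3 in the other 6 libraries, with a difference of -1.16 ± 0.25 (adjusted p = 0.0254). OFUSG22808 was lowest there, at 1.84 and 1.31 CPM against 2.66 to 4.79, and differed by 1.72 ± 0.44 (adjusted p = 0.0405). OFUSG03648 rested on 1 and 3 counts in the 0.4% DMSO libraries and on 16 to 63 in the others, and its fitted difference was 4.61 ± 1.20 (adjusted p = 0.042).

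**Figure D3:**
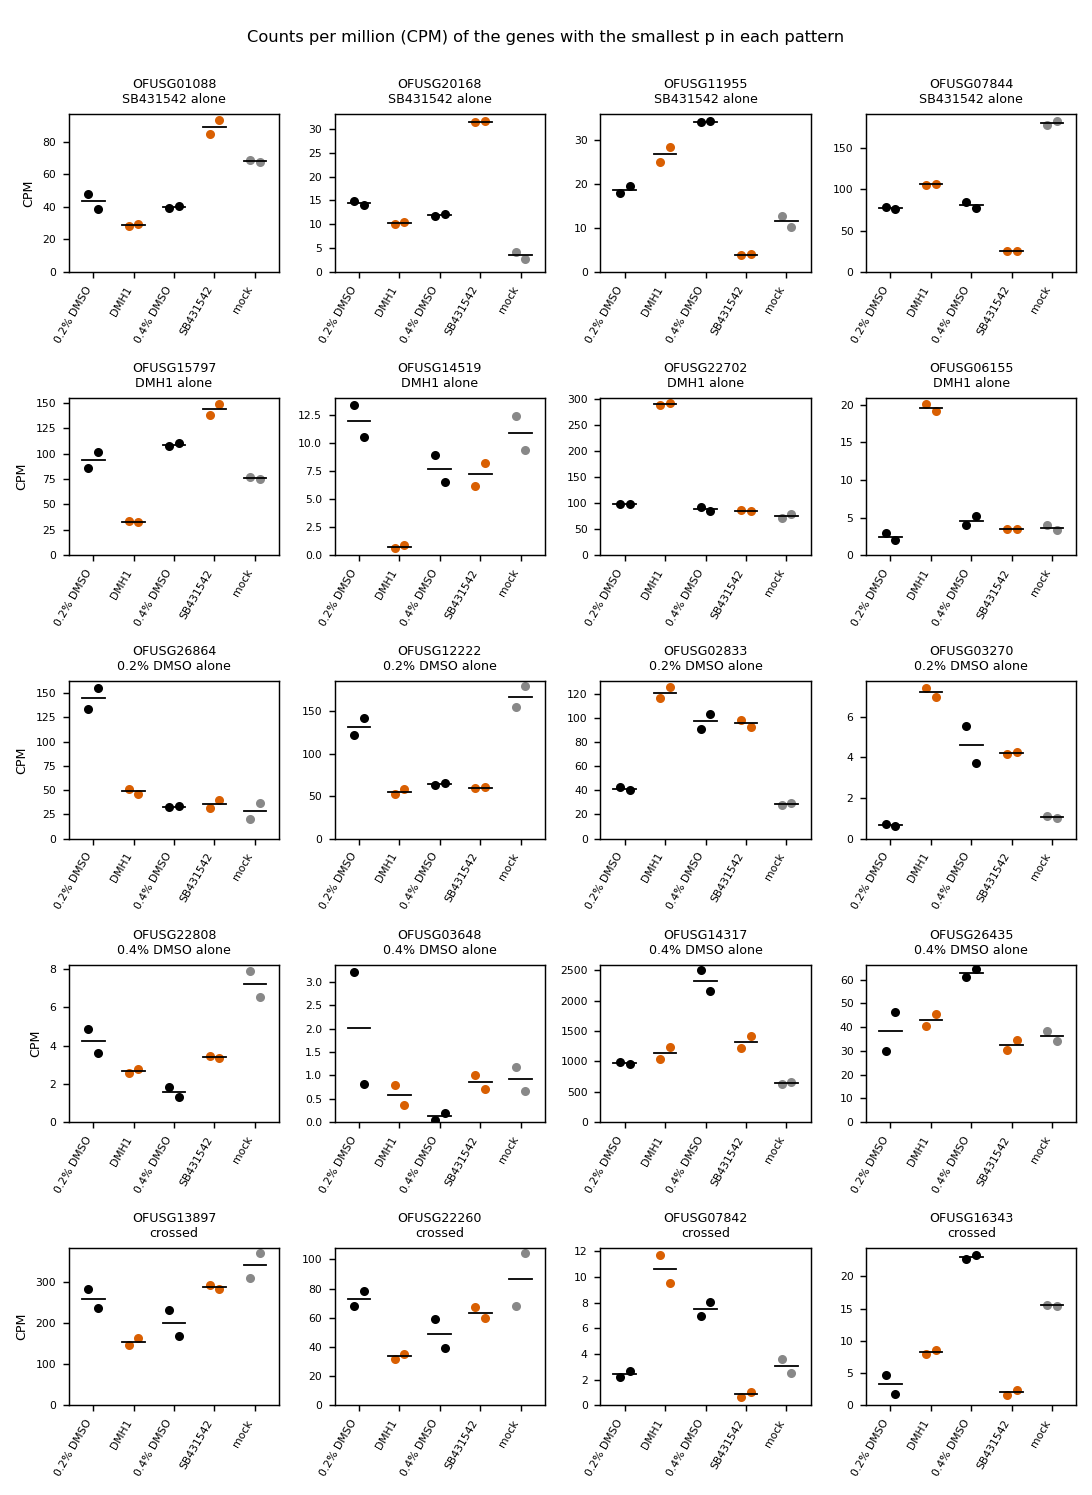
CPM (vertical, from 0) of the 20 genes named by pattern, 1 panel each, in the libraries of 0.2% DMSO, DMH1, 0.4% DMSO, SB431542 and mock (horizontal), scaled over all 14 libraries. Points are libraries (black, solvent controls; orange, drugs; grey, mock) and lines are means of 2. In the row for 0.2% DMSO alone, mock libraries lie beside 0.2% DMSO for OFUSG12222, OFUSG02833 and OFUSG03270 and beside the other groups for OFUSG26864.

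The 20 genes named by pattern held up unevenly. When each of the 8 libraries was left out in turn, 14 of the 20 were called every time. The exceptions were all 4 genes of 0.4% DMSO, of which OFUSG03648 was called in only 1 of the 8 fits, and the crossed genes OFUSG13897 and OFUSG22260, called in 6. With transcripts in place of genes OFUSG22702 moved to -3.12 and lost its call (adjusted p = 0.0742), and so did OFUSG13897, OFUSG22260, OFUSG26435, OFUSG22808 and OFUSG03648 (adjusted p from 0.0508 to 0.117). OFUSG03648 also lost it when libraries were thinned to the smallest (adjusted p = 0.0566).

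The mock libraries, whose label names neither drug nor DMSO and whose exposure window was that of DMH1, showed where the groups lay relative to embryos outside the subtraction. Position 0 was the mean of the other 3 groups and position 1 the group set apart. For the 183 genes of 0.2% DMSO alone, mock lay nearer to 0.2% DMSO in 120 (65.6%), at a median position of 0.783. By the definition of the pattern, DMH1 embryos lay on the side of the pair exposed from 3 hpf, including its drug-free control, in all 183. In the 120, mock lay on the side of 0.2% DMSO. Here and below, placement was counted for called genes only, so no share over all genes stands beside it. OFUSG12222 had 155 and 179 CPM in mock, higher than in any of the 8 libraries, and OFUSG02833 had 27.5 and 29.3, lower than in any of them. OFUSG26864 was an exception, with 19.7 and 36.5 CPM in mock. For DMH1 alone, mock was nearer to DMH1 in only 47 of 257 genes (18.3%, median position 0.0365), and for SB431542 alone nearer to SB431542 in 9 of 42 (21.4%, median -0.241).

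Crossed genes placed mock with SB431542 and 0.2% DMSO in 52 of 81 (64.2%). Mock was not a stand-in for either control, however. OFUSG20168 had 4.10 and 2.76 CPM in mock and 10.5 to 14.7 in the DMH1 and control libraries, and OFUSG07844 had 178 and 184 in mock and 75.3 to 110 in the same 6 libraries. OFUSG20173, also of SB431542 alone, had the same positions as OFUSG20168 for mock (-1.323), rBMP4 (-2.282) and rActivin A (-2.812). Whether these identifiers share reads was not tested, so they may not count as separate genes. With mock in place of 0.2% DMSO as the control of DMH1, an alternative chosen after seeing the data, 4475 genes were called, 586 of the 806 among them, the difference of OFUSG20168 turned to -0.18 and that of OFUSG26864 to -0.70, and that of OFUSG07844 shrank to -0.93, under the fold minimum.

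**Figure D4:**
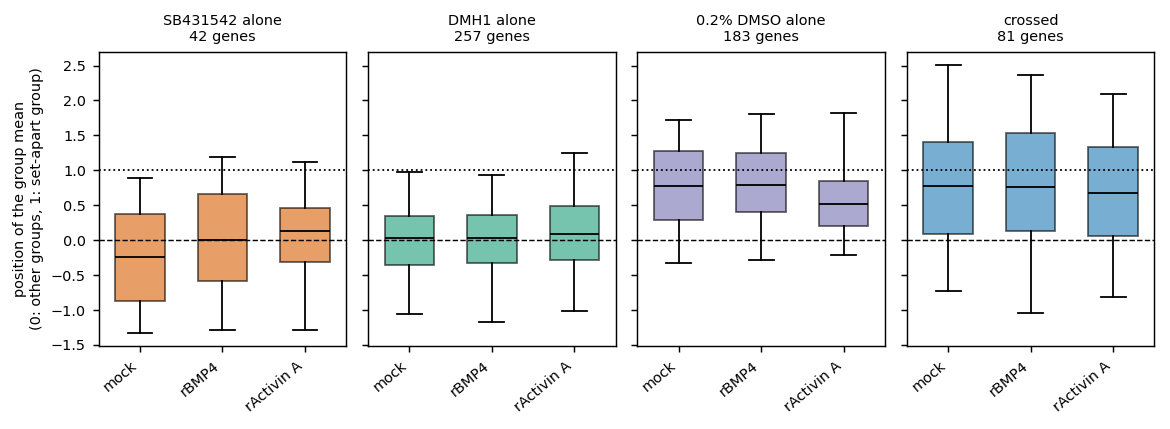
Position of the mock, rBMP4 and rActivin A means (horizontal) between the other groups (0, dashed) and the group or pair set apart (1, dotted) on the log2 CPM scale (vertical) for the genes of 4 patterns. Boxes span the quartiles with the median, and whiskers the 5th to 95th percentiles. Mock medians lie at -0.241, 0.0365, 0.783 and 0.780 from left to right.

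The ligand libraries gave a test that shared no library with the subtraction. Against mock, rBMP4 changed 276 of 19321 genes tested (1.43%, 0.776% up and 0.652% down) and rActivin A 3247 (16.8%, 7.26% up and 9.54% down). The rBMP4 count was 173 without the second mock replicate and 445 and 453 without the first and the second rActivin A replicate, which took part in the estimate of spread, and the rActivin A count was 2163 and 1941 without the first and the second mock replicate. Of the 806 called genes 751 could be tested there, and 27 of them (3.60%) changed after rBMP4 and 202 (26.9%) after rActivin A, of which 62 rose and 140 fell. Of the 18544 genes tested in both sets of libraries, 1.40% changed after rBMP4 and 16.1% after rActivin A, the background for these shares. The genes of SB431542 alone that were low in SB431542 embryos held larger shares than this background. Of these 25 genes 8 (32.0%) changed after rBMP4, with 3 higher and 5 lower, and 11 (44.0%) after rActivin A, with 1 higher and 10 lower. Of the genes of SB431542 alone that were high in SB431542 embryos 16 could be tested, and 1 (6.25%) changed after rBMP4 and 3 (18.8%) after rActivin A, so that the whole pattern had 9 of 41 (22.0%) and 14 of 41 (34.1%). The share for rBMP4 was smaller in the largest patterns. It changed 8 of 235 genes of DMH1 alone (3.40%) and 0 of 174 of 0.2% DMSO alone (also 0 by DESeq2, and 10 at an unadjusted p below 0.05), whereas rActivin A changed 66 (28.1%, 23 higher and 43 lower) and 56 (32.2%, 14 higher and 42 lower) of them. No test of these shares against the background was made.

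Single genes responded to the ligands in different ways. OFUSG11955 had 12.7 and 10.3 CPM in mock, 5.01 and 4.31 after rBMP4, and 12.1 and 7.20 after rActivin A. It fell after rBMP4 (-1.31, adjusted p = 0.0101) as it did after SB431542, and did not pass the test after rActivin A (-0.24, adjusted p = 0.485). OFUSG07844 fell after rActivin A from 178 and 184 CPM to 69.7 and 99.6 (-1.11, adjusted p = 3.08e-05), the direction it took with the Activin receptor inhibitor. OFUSG07842 rose after both ligands, from 3.63 and 2.49 CPM to 7.48 and 8.50 with rBMP4 (1.38, adjusted p = 0.00801) and to 9.93 and 9.39 with rActivin A (1.65, adjusted p = 0.000282). OFUSG16343 fell after both, from 15.6 and 15.5 CPM to 5.93 and 7.57 (-1.20, adjusted p = 0.00727) and to 3.21 and 2.19 (-2.49, adjusted p = 6.59e-06). OFUSG14519, nearly absent after DMH1, fell after rActivin A (-1.76, adjusted p = 0.000133) from 12.4 and 9.42 CPM in mock to 3.63 and 2.71, and had 12.03 and 9.91 CPM after rBMP4 (adjusted p = 1). OFUSG22702, which rose after DMH1, differed from mock by less than 1 log2 unit after either ligand (-0.01 and -0.33).

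The study pairs the identifiers of 6 BMP pathway genes with names. Of these 6, 0 were called by edgeR or DESeq2 for the difference between the effects or for either drug. At an unadjusted p below 0.05 in edgeR there were 2 (difference), 3 (SB431542) and 2 (DMH1). After DMH1, *bmp2/4* (0.34 ± 0.10) and *bmpr2* (-0.50 ± 0.11) had an edgeR adjusted p below 0.05 (0.0304 and 0.00799). Both stayed under the fold minimum of 1. The 6 genes cover the ligands *bmp2/4* and *bmp5-8*, the extracellular antagonist *chordin*, the receptors *bmpr1* and *bmpr2*, and the signal transducer *smad1/5/8*. All 6 were well expressed in the 8 libraries, with *bmp2/4* at 75.3 to 105 CPM and *chordin* at 423 to 557. The ligand *bmp2/4* was at 83.0 and 77.6 CPM in 0.2% DMSO, 97.4 and 105 in DMH1, 79.0 and 75.3 in 0.4% DMSO, and 101 and 104 in SB431542. Both drugs left it above their controls without overlap, by 0.34 ± 0.10 (adjusted p = 0.0304) and 0.41 ± 0.10 (adjusted p = 0.191), and the difference between the effects was 0.07 ± 0.14 (adjusted p = 0.801). *chordin* stood at 541 and 454 CPM in 0.2% DMSO, 431 and 455 in DMH1, 537 and 557 in 0.4% DMSO, and 423 and 452 in SB431542. Its DMH1 libraries overlapped with their control, the SB431542 libraries lay below theirs, and the difference was -0.15 ± 0.14 (adjusted p = 0.533).

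The receptor *bmpr2* had the smallest adjusted p of the 6 genes (0.0603), with a difference of 0.54 ± 0.16, under the fold minimum of 1. The adjusted p was 0.0287 with DESeq2, and in edgeR 0.0272 with all 14 libraries and 0.0421 after thinning. With mock as the control of DMH1 the difference was 0.77 (adjusted p = 0.000227 in edgeR). In each of these fits the difference stayed under 1 log2 unit. *bmpr2* was at 54.4 and 53.1 CPM in 0.2% DMSO and between 37.3 and 41.7 in the other 6 libraries. As in the genes of 0.2% DMSO alone, that control stood apart and DMH1 embryos were level with the pair exposed from 3 hpf, and mock libraries held 62.6 and 63.9 CPM. For *smad1/5/8* the difference was 0.41 ± 0.15 (adjusted p = 0.116), for *bmpr1* 0.30 ± 0.21 (adjusted p = 0.414) and for *bmp5-8* -0.10 ± 0.15 (adjusted p = 0.737). That of *smad1/5/8* was 0.47 with mock as the control of DMH1 (adjusted p = 0.00416 in edgeR). The sign of *bmp5-8* turned to 0.0431 without the second 0.2% DMSO replicate and to 0.49 with mock as the control of DMH1, and that of *chordin* turned to 0.73 with mock. Against mock, the ligand effects passed both thresholds in *bmp2/4* and *chordin* only. *bmp2/4* fell after rBMP4 (-2.03, adjusted p = 2.32e-07) and rActivin A (-1.32, adjusted p = 5.21e-06), and so did *chordin* (-1.15, adjusted p = 8.67e-07, and -2.03, adjusted p = 1.79e-09).

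**Figure D5:**
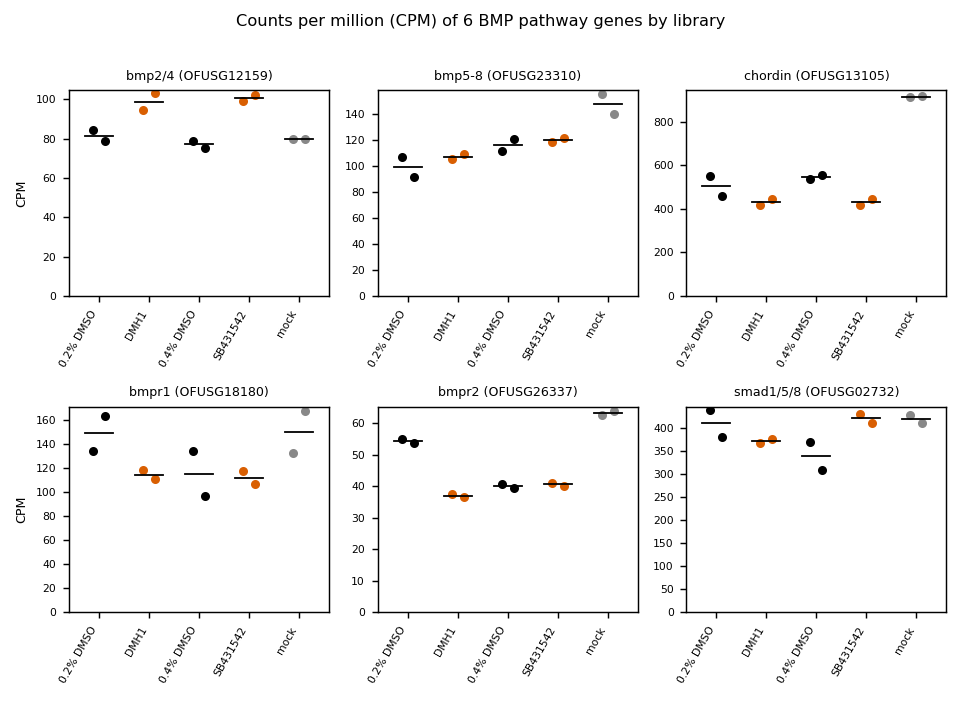
CPM (vertical, from 0) of 6 BMP pathway genes in the libraries of 0.2% DMSO, DMH1, 0.4% DMSO, SB431542 and mock (horizontal), scaled over all 14 libraries. Points are libraries (black, solvent controls; orange, drugs; grey, mock) and lines are means of 2. For *bmpr2* the 0.2% DMSO and mock libraries lie above the other groups, for *bmp5-8* the mock libraries alone lie above the rest, and for *bmp2/4* they lie among the solvent controls.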

How the data were processed

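Whole *O. fusiformis* embryos were collected at 6 hpf, and poly(A) RNA was sequenced in pairs of reads from strand-marked libraries. Per the labels, the authors quantified transcripts with kallisto 0.46.2 and deposited, for each library, estimated counts and TPM (a length-scaled abundance) per transcript. The strand setting of that step is not stated in the sources read. The deposited estimated counts were summed per gene (the identifier before the dot) over 31977 transcripts of 27040 genes and rounded to whole numbers. Deposited TPM values were not tested. None of the 27040 identifiers matched the reference gene table (assembly GCA_903813345.2), so no sequence or position is given.

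Genes passing filterByExpr were scaled by TMM and tested with edgeR 4.0.16 (R 4.3.3, quasi-likelihood F test, 2 libraries in each of 4 groups, no block). CPM used a prior count of 2 on the log2 scale only. Mock, rBMP4 and rActivin A libraries were fitted apart, and CPM of these libraries was scaled over all 14. Calls needed both an adjusted p under 0.05 and at least 1 log2 unit. Besides the 6 pathway genes, the text names in each pattern the 2 called genes above 0 and the 2 below 0 with the smallest p. The comparison, patterns, lists and naming rule were chosen with earlier results of these data known. Scripts were tested on simulated data. Alternatives were DESeq2 1.42.0, its size factors, no filter, transcripts, all 14 libraries, random thinning to the least deep library, the replicate number as a block, other fold and share limits, and leaving out each library. Counts range from 16316525 to 59916462 per library in the 8 libraries compared. In the mock, rBMP4 and rActivin A libraries they range from 9416790 (rActivin A replicate 2) to 26135752 (mock replicate 1). These depths limit precision for the least abundant genes.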

Additional observations from a re-analysis of the deposited data

Results flagged for a closer look

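The effect of a drug in one pair of groups differed from the effect in the other by the test of the difference itself in 806 genes, which is the comparison of the report. The 20 genes named by pattern are among them, and each value here is the SB431542 effect minus the DMH1 effect in log2 units. For SB431542 alone the values were 1.71 (OFUSG01088), 1.87 (OFUSG20168), -3.67 (OFUSG11955) and -2.17 (OFUSG07844). For DMH1 alone they were 1.87 (OFUSG15797), 3.84 (OFUSG14519), -1.65 (OFUSG22702) and -3.43 (OFUSG06155). For 0.2% DMSO alone they were 1.65 (OFUSG26864), 1.12 (OFUSG12222), -1.61 (OFUSG02833) and -3.62 (OFUSG03270). For 0.4% DMSO alone they were 1.72 (OFUSG22808), 4.61 (OFUSG03648), -1.08 (OFUSG14317) and -1.16 (OFUSG26435). For the crossed genes they were 1.24 (OFUSG13897), 1.46 (OFUSG22260), -5.24 (OFUSG07842) and -4.90 (OFUSG16343).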

How the results depend on the processing

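Every called gene among the 20 named kept its direction in all fits except OFUSG20168 and OFUSG26864, which turned to -0.18 and -0.70 with mock in place of 0.2% DMSO, where *bmp5-8* turned to 0.49, *chordin* to 0.73, and OFUSG07844 lost its call at -0.93. Calls were also lost with transcripts by OFUSG22702 (-3.12), OFUSG13897, OFUSG22260, OFUSG26435, OFUSG22808 and OFUSG03648, with a replicate block by OFUSG22808 (adjusted p = 0.0532) and with thinning by OFUSG03648 (adjusted p = 0.0566). The difference of *bmp5-8* also turned to 0.0431 without the second 0.2% DMSO replicate. Leaving out each library in turn gave 124 to 1961 calls for the difference, 17 to 157 for SB431542, 793 to 2479 for DMH1, 654 to 2466 for the controls, 1067 to 2911 for the drugs compared directly, 173 to 453 for rBMP4 and 1941 to 4251 for rActivin A, where the library left alone in its group is assumed to vary like the others. By pattern it gave 12 to 47 genes for SB431542 alone, 34 to 455 for DMH1 alone, 22 to 687 for 0.2% DMSO alone, 0 to 22 for 0.4% DMSO alone, 14 to 176 crossed and 40 to 575 without a pattern. DESeq2 called 971 genes for the difference, 753 of them shared, and 103 for SB431542, with 10 set apart by 0.4% DMSO. Without a filter on low counts SB431542 had 100 calls and 0.4% DMSO alone 10 genes, and with all 14 libraries in the fit 0.4% DMSO alone had 10. Transcripts in place of genes gave 251 calls for the difference, 24 for SB431542, 1148 for DMH1 and 150 for rBMP4, with 24, 80, 47, 31 and 63 in SB431542 alone, DMH1 alone, 0.2% DMSO alone, crossed and no pattern. Without a fold minimum there were 1431 calls for the difference, 5042 for DMH1, 4415 for the controls, 5048 for the drugs directly, 502 for rBMP4 and 7683 for rActivin A, with 464, 398, 10 and 388 in DMH1 alone, 0.2% DMSO alone, 0.4% DMSO alone and no pattern. With a minimum of 0.5 these were 1410, 3924, 3532, 4090, 455 and 6141, with 459, 384, 10 and 387. A share of 70% left 69 genes without a pattern and 11 in 0.4% DMSO alone. A share of 90% left 26 in SB431542 alone, 164 in DMH1 alone, 114 in 0.2% DMSO alone, 0 in 0.4% DMSO alone, 28 crossed and 474 without a pattern. With mock in place of 0.2% DMSO there were 4475 calls for the difference, 5760 for DMH1 and 4613 for the controls, with 752, 2202, 30, 266 and 1172 genes in DMH1 alone, the control of DMH1 alone, 0.4% DMSO alone, crossed and no pattern. The replicate numbers did not pair the libraries (correlations of replicate deviations -0.016 to 0.0338 among the 4 groups). A replicate block gave 669 calls, 648 of them shared, and 3 genes in 0.4% DMSO alone. Thinning all libraries to the smallest gave 763 calls, 673 of them shared. The cause of these changes was not tested. Genes with few counts in a group, such as OFUSG03648, are limited by depth.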

Other observations

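The 237 called genes without a single pattern leaned to the same libraries as the rest. By the pattern with the largest share, 89 were nearest to DMH1 alone, 69 to 0.2% DMSO alone, 54 to crossed, 18 to SB431542 alone and 7 to 0.4% DMSO alone. Among these genes 228 had a share below 80%, and 9 had a larger share but overlapping libraries. Both effects had opposite signs in 648 of the 806 called genes. The call itself favours opposite signs, since it needs effects that lie apart, and the share over all genes was not counted. After neither drug were 186 of the 806 called. In 15 of the 806 a group had no count at all, and no fold is given for these genes. The called genes were about as abundant as all genes tested (median 2.78 against 2.94 log2 CPM), their longest transcripts were of similar length (median 1887 against 1825 bases), and 17.7% had several transcripts, against 15.9%.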
